A study of Mus musculus with 4 samples.

Results

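Imprinted genes are transcribed mainly from the copy inherited from 1 parent, and 40 of them were followed here in mouse spermatogonia with impaired retinoic acid signalling. The members were taken by symbol from the deposited table of 43998 entries, whose names were split at commas, and a recurring symbol was represented by its entry of highest mean RPKM. All 40 symbols were found. They were grouped by the parental copy that is usually active, with 22 paternally expressed, 15 maternally expressed, 2 whose active copy depends on the tissue (Grb10 and Ube3a) and 1, Gnas, whose active copy depends on the transcript. They were also grouped into 18 imprinted clusters or single loci.

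The germ cell RA signaling mutant group held 2 libraries and the control group held 2, all of THY1+ spermatogonia from the testes of C57BL/6 mice at postnatal day 4. Cells were pulled out with magnetic beads against THY1 (CD90.2), which undifferentiated spermatogonia carry on their surface. The sources used here do not name the altered allele, the promoter that restricts it to germ cells, or the animals behind each library. Expression was deposited as RPKM, a read density normalised for transcript length and library size, with both libraries of a genotype merged into 1 value. Replicate spread is thus unknown, and all differences below are descriptions without SD or p-value.

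Imprints are marks of DNA methylation that are erased in the primordial germ cells and set again according to the sex of the embryo. In the male germ line only a few control regions gain methylation, among them those of the H19-Igf2, Dlk1-Dio3 and Rasgrf1 loci, and this takes place in prospermatogonia before birth. Somatic cells keep the imprints of both parents, and many imprinted genes regulate fetal growth and are abundant in mesenchymal and endocrine cells. An RPKM sums the reads of both parental copies, so the values below say nothing of which copy was read.

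As a check of the labelled cells, the germ cell gene Dazl stood at 353 RPKM in the mutant and 274 RPKM in the control, and Mael at 219 RPKM in the mutant and 159 RPKM in the control. Of 12 germ cell markers 10 had higher mutant values, with a median log2 difference of 0.49, while Sall4 and Gfra1 were lower by more than 2-fold. Markers of other testis cells were present in both genotypes. All 8 macrophage markers had lower mutant values, with sums of 1391 RPKM in the mutant and 3990 RPKM in the control, as had all 6 Leydig cell markers, with sums of 237 RPKM in the mutant and 741 RPKM in the control. Of 8 Sertoli cell markers 7 were lower, with sums of 173 RPKM in the mutant and 357 RPKM in the control. Of 5 peritubular myoid markers 4 reached an RPKM of 1 in at least 1 genotype. These 4 were all lower, with sums of 37.1 RPKM in the mutant and 86.3 RPKM in the control. The other, Cnn1, was level at 0.449 RPKM in the mutant and 0.443 RPKM in the control. All 7 interstitial fibroblast markers were lower, with sums of 125 RPKM in the mutant and 220.1 RPKM in the control. The 5 endothelial markers, 2 of them higher in the mutant, summed to 21.8 RPKM in the mutant and 22.8 RPKM in the control, and no marker counted here was at 0. In RNA of a mixed cell suspension, fewer cells of a type and less RNA per cell cannot be told apart. Low values stepped in whole reads, which placed the depth near 57300000 reads for the mutant and 56000000 reads for the control, provided the values carry no other scaling.

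The promoters of members at either end of the range of differences are shown first, because imprints are carried by methylated CpG dinucleotides, at some loci near start sites. Each window holds 300 bases, most of them upstream of a start site annotated by RefSeq on GRCm38.p6, written 5′ to 3′ along the gene, with CpG dinucleotides in capitals. Snrpn has several start sites, of which the one nearest the 5′ end of the measured entry and the innermost one are printed. The former is labelled outer, although a further start, in the window chr7:60450128-60450427, lies upstream of it and outside the entry.
Snrpn, outer start (chr7:60140176-60140475, minus strand): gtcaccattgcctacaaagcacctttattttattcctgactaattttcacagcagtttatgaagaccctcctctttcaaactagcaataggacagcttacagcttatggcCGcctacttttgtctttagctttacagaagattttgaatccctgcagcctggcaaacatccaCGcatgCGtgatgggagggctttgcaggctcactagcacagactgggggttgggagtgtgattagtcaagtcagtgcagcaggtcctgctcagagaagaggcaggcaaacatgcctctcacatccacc
Snrpn, inner start (chr7:60005150-60005449, minus strand): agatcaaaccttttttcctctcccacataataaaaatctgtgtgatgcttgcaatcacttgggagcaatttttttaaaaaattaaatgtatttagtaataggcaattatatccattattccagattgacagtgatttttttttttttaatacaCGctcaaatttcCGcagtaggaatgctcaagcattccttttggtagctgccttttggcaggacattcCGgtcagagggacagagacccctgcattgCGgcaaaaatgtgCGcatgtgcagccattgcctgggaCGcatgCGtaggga
Zrsr1 (chr11:22971755-22972054, plus strand): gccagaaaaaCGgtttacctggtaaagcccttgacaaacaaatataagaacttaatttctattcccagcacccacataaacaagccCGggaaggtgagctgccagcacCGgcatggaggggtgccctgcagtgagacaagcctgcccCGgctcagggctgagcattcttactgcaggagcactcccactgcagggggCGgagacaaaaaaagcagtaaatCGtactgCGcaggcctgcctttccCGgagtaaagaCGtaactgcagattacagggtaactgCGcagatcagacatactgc
Igf2r (chr17:12769657-12769956, minus strand): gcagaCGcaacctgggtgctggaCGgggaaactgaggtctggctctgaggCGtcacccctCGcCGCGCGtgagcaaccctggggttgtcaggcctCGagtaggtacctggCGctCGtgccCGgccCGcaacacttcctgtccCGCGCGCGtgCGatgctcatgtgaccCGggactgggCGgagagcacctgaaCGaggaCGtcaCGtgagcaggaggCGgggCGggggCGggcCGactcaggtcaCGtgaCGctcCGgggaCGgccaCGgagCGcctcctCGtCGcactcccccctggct
Ascl2 (chr7:142969215-142969514, minus strand): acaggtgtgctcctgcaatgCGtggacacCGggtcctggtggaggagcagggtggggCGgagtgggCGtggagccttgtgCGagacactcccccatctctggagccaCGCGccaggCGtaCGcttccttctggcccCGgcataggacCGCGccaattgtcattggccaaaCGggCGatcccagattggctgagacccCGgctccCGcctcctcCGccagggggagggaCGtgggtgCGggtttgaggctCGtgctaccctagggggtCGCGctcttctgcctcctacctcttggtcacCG
Rian (chr12:109603695-109603994, plus strand): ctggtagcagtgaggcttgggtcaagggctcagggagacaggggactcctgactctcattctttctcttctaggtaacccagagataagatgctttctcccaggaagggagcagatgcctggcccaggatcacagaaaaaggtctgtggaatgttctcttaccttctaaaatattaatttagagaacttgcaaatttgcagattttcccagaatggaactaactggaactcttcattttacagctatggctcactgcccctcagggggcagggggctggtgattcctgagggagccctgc
The outer Snrpn window holds 3 CpGs and the inner one 7. The Zrsr1 window holds 10, that of Igf2r 34, that of Ascl2 23, and that of Rian 0. Windows were found for 33 members, with a median of 13 CpGs when 1 window was taken per gene, against a median of 7 over 32851 windows of the whole table. The hexamer TGCCGC, the core recognised by the imprint-protecting zinc finger protein ZFP57, was sought on both strands. It occurred in 7 of the 33 member windows (21.2%), those of Copg2, Grb10, Meg3, Nap1l5, Nnat, Plagl1 and Zim1, and in 11.6% of all windows. For a gene with several windows, the one nearest the 5′ end in GENCODE was counted, so the inner Snrpn window printed above, which holds the hexamer, is not in this count. Over all windows of the members it occurred in 12 of 50. The hexamer itself holds a CpG, and the member windows hold more CpGs at the median, as given above. The part of this in the share was not tested. The start sites of the counted Plagl1 and Grb10 windows lie 30328 and 1263 nt from the 5′ end in GENCODE. A letter match in a window is a description of the sequence and not a binding site.

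Levels in the mutant were set against those in the control to see which imprinted transcripts differ with retinoic acid signalling in these cells. Snrpn stood apart with a mutant value 2.83-fold above control. H19, Ascl2, Gnas, Rian and Slc22a18 had the lowest mutant values relative to control on the scale defined below, and Zrsr1, Usp29 and Igf2r the highest after Snrpn. As a group the imprinted genes were centred on 0. Of the 40 members, 34 reached an RPKM of 1 in at least 1 genotype, which was required for the comparison. Their median difference, as log2((mutant RPKM + 1) / (control RPKM + 1)), was 0.06, beside 0.00 over all 17278 entries that met this minimum. On this scale differences between low values come out too small. On it 18 members lay above 0 and 16 below.

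By a 2-fold rule 1 member was higher in the mutant and 0 were lower, while of all entries 4.38% were higher and 4.33% lower. A 1.5-fold rule, chosen after the values were seen, counted 4 members higher (11.8%) and 5 lower (14.7%), near the shares of all entries, which were 12.6% higher and 13.7% lower. Among 12206 protein-coding genes the 2-fold rule called 1.33% higher and 4.06% lower, and the 1.5-fold rule 6.8% higher and 14.9% lower. With 0.1 added in place of 1, 2 members were 2-fold higher (Snrpn and Rasgrf1) and 2 lower (Ascl2 and Slc22a18), beside 8.48% and 6.7% of all entries. Rasgrf1 met the minimum in the mutant alone and Slc22a18 in the control alone, so the directions of both were fixed. Slc22a18 is also 1 of the 5 members lower by the 1.5-fold rule. The counts carry no error rate. When the mutant values were rescaled so that the germ cell markers had a median of 0, 0 members were 2-fold higher and 5 lower, and 1 was 1.5-fold higher and 11 lower. That rescaling moved the median of all entries to -0.44 and the median of the members, of which 33 then met the minimum, to -0.44 as well. Of all entries it left 2.78% higher and 13.7% lower by the 2-fold rule, and 4.65% higher and 37.3% lower by the 1.5-fold rule. Under it the differences of Meg3, Mirg, Peg10, Ppp1r9a, Copg2, Airn, Ube3a and Impact turned from above to below 0.

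**Figure D1:**
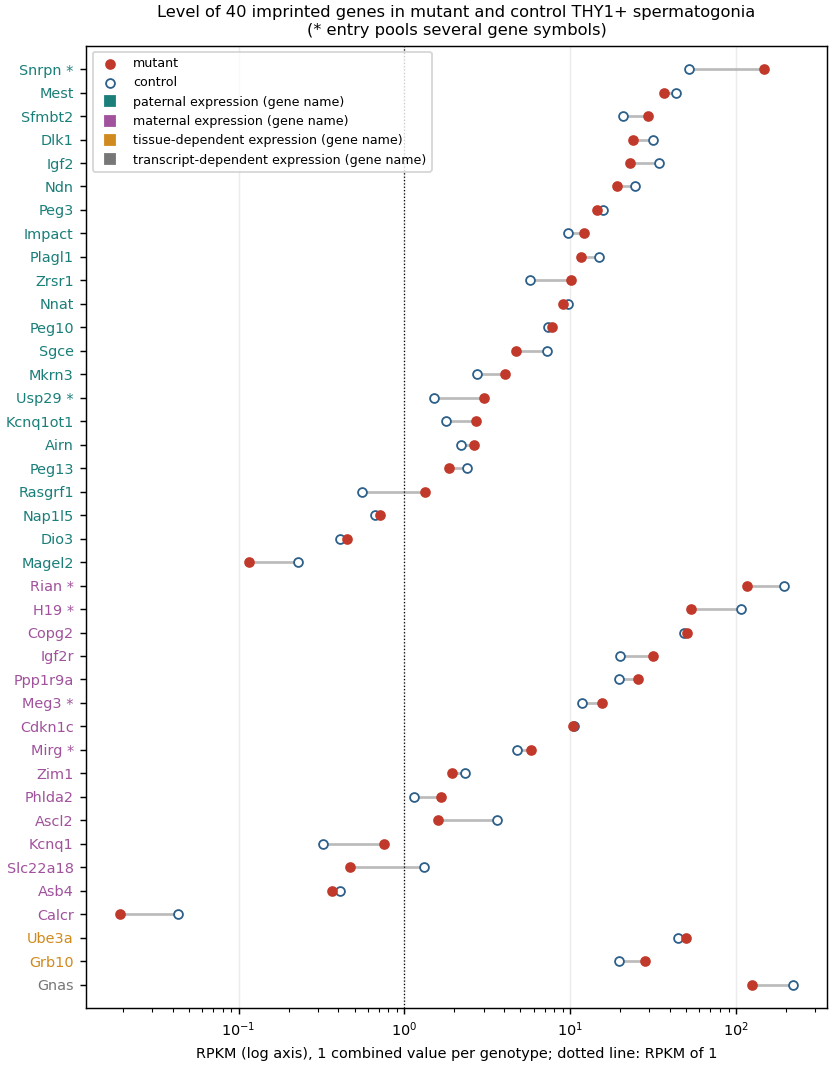
RPKM of the 40 imprinted genes on a log axis, with filled points for mutant and open points for control, 1 combined value per genotype. Gene names are coloured by the parental copy usually expressed, the dotted line marks an RPKM of 1, and an asterisk marks an entry that pools several symbols. Levels ran from 0.0193 RPKM for Calcr to 147 RPKM for Snrpn in the mutant, and the widest gap among the abundant genes was that of Snrpn.

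Paternally expressed members had a median log2 difference of 0.07 over the 19 of 22 that met the minimum, and maternally expressed members 0.01 over 12 of 15. By the 1.5-fold rule the paternal members counted 3 higher and 0 lower, and the maternal members 1 higher and 4 lower. Of all entries 12.6% were higher and 13.7% lower by this rule. Slc22a18, 1 of the 4, met the minimum in the control alone and so had to be lower. The paternal genes Igf2 and Sgce were 1.51-fold and 1.53-fold lower as plain ratios, without the added RPKM of 1. Summed over the members that met the minimum, paternal genes stood at 364 RPKM in the mutant and 288 RPKM in the control, and maternal genes at 315 RPKM in the mutant and 425 RPKM in the control. Single genes carry these sums, Snrpn the paternal one and Rian with H19 the maternal one. After rescaling to the germ cell markers both medians lay near -0.44, at -0.44 for paternal and -0.45 for maternal members. Of the 18 paternal members that then met the minimum 1 was higher and 6 were lower by the 1.5-fold rule. Of the 12 maternal members 0 were higher and 4 lower. The rule then called 4.65% of all entries higher and 37.3% lower. Whether the parental classes differ from each other was not tested.

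Snrpn, which encodes the spliceosomal protein SmN, lies in the central cluster of chromosome 7 whose loss in humans underlies Prader-Willi and Angelman syndromes. Its entry, chr7:59937371-60140219 in GRCm38, also pools Snurf, Snord107, Gm38393 and part of Snhg14, the long host transcript that continues from Snrpn. The value was 147 RPKM in the mutant and 51.9 RPKM in the control, a ratio of 2.83 with a 95% exact binomial interval of 2.73 to 2.91 that covers counting error only. Its log2 difference of 1.48 became 0.998 after rescaling to the germ cell markers, just under the 2-fold rule. Of 9 entries that list Snhg14, the Snrpn entry included, 6 met the minimum. Of these, 5 lay above 0, and 4 were 2-fold or more higher, where 4.38% of all entries were. These 4 include the Snrpn entry itself and 2 entries that met the minimum in the mutant alone and so had to be higher, at 1.66 RPKM in the mutant and 0.158 RPKM in the control and at 2.89 RPKM in the mutant and 0.384 RPKM in the control. The remaining one was at 10.9 RPKM in the mutant and 4.81 RPKM in the control. Another Snhg14 entry was lower, at 55.0 RPKM in the mutant and 92.3 RPKM in the control. After rescaling to the germ cell markers 4 of the 6 lay above 0 and 2 below. By the 2-fold rule 1 was then higher and 1 lower, beside 2.78% and 13.7% of all entries. The Snhg14 exons and small RNA units repeat along the locus, which leaves the split of reads between its entries uncertain.

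The 3 neighbours of Snrpn that met the minimum lay within 1.5-fold as deposited. Ndn, which encodes the MAGE family protein necdin, was at 19.2 RPKM in the mutant and 24.4 RPKM in the control. Mkrn3, a ring finger protein gene known for its part in the timing of puberty, was at 4.04 RPKM in the mutant and 2.75 RPKM in the control. Magel2, another MAGE gene, was near the limit of use, at 0.116 RPKM in the mutant and 0.229 RPKM in the control. Ube3a, the ubiquitin ligase gene that is maternally expressed in neurons, was at 49.7 RPKM in the mutant and 44.7 RPKM in the control, a log2 difference of 0.15 that turned to -0.33 after rescaling to the germ cell markers and to -0.21 with the trend of transcript length and GC content removed.

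Both members of the H19-Igf2 locus were lower in the mutant. H19, a noncoding RNA that hosts miR-675 and is expressed from the maternal copy in somatic tissue, was at 53.7 RPKM in the mutant and 107 RPKM in the control. This is 1.99-fold lower in the mutant (interval 1.94 to 2.06), just short of the 2-fold rule with a log2 difference of -0.98. Igf2, the fetal growth factor expressed from the paternal copy, was at 22.8 RPKM in the mutant and 34.4 RPKM in the control, 1.51-fold lower (interval 1.46 to 1.57) and just short of the 1.5-fold rule on the scale with 1 added. The fibroblast and Leydig cell marker sums given above were lower in the mutant too, and their part in these values was not tested. Both genes were past 2-fold after rescaling to the germ cell markers, at -1.46 and -1.04. H19-Igf2 and Igf2r-Airn were the 2 clusters, of 8 with at least 2 members in the comparison, whose members all lay on 1 side of 0. With 2 members each this is a description only, and Airn lay below 0 after the rescaling, with a counting interval that includes equal levels as deposited.

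The imprinted partners of IGF2 signalling stood higher in the mutant as deposited, by less after rescaling to the germ cell markers, where Igf2r was at 0.15, short of the 1.5-fold rule, and Grb10 at 0.04 on the log2 scale. Igf2r, the receptor that takes IGF2 to lysosomes and so limits growth, was at 31.5 RPKM in the mutant and 20.0 RPKM in the control, 1.57-fold higher (interval 1.53 to 1.61). Grb10, an adaptor that restrains the insulin and IGF1 receptors, was at 28.3 RPKM in the mutant and 19.6 RPKM in the control, 1.44-fold higher. The level of Igf2 was 0.725 times that of Igf2r in the mutant and 1.72 times in the control, a ratio within each column that no rescaling of a column alters. Airn, the antisense RNA that silences the paternal Igf2r copy in somatic tissue, was at 2.62 RPKM in the mutant and 2.20 RPKM in the control, with an interval of the ratio, 0.941 to 1.48, that includes 1. Igf2r and Airn overlap on opposite strands, as do Kcnq1 and Kcnq1ot1, and the ends of Mest and Copg2. No source used here says that counting used strand, so reads of such partners cannot be told apart.

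Other genes of the IGF axis were listed after the values of the members had been seen, and 14 of 16 met the minimum, with a median of 0.03. Of these, 2 were 2-fold higher and 3 were 2-fold lower, beside 4.38% and 4.33% of all entries. Igf2bp1, which encodes an RNA-binding protein that binds Igf2 and H19 transcripts, was at 321 RPKM in the mutant and 47.8 RPKM in the control, 6.70-fold higher, in an entry that also lists Mir3063. Igf2bp2 was at 29.9 RPKM in the mutant and 9.57 RPKM in the control, 3.13-fold higher, and Igf2bp3 at 22.2 RPKM in the mutant and 16.7 RPKM in the control. Igf2bp1 and Igf2bp2 were still past 2-fold after rescaling to the germ cell markers, at 2.23 and 1.08, whereas Igf2bp3 was at -0.07. The receptor gene Igf1r was at 46.8 RPKM in the mutant and 28.8 RPKM in the control. The lower genes were Igf1, at 28.1 RPKM in the mutant and 59.7 RPKM in the control, and the binding protein genes Igfbp4, at 62.7 RPKM in the mutant and 166 RPKM in the control, and Igfbp5, at 2.30 RPKM in the mutant and 5.91 RPKM in the control. Igf1 is also among the interstitial fibroblast markers above, whose sum was lower in the mutant, and the part of such cells in these differences was not tested.

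**Figure D2:**
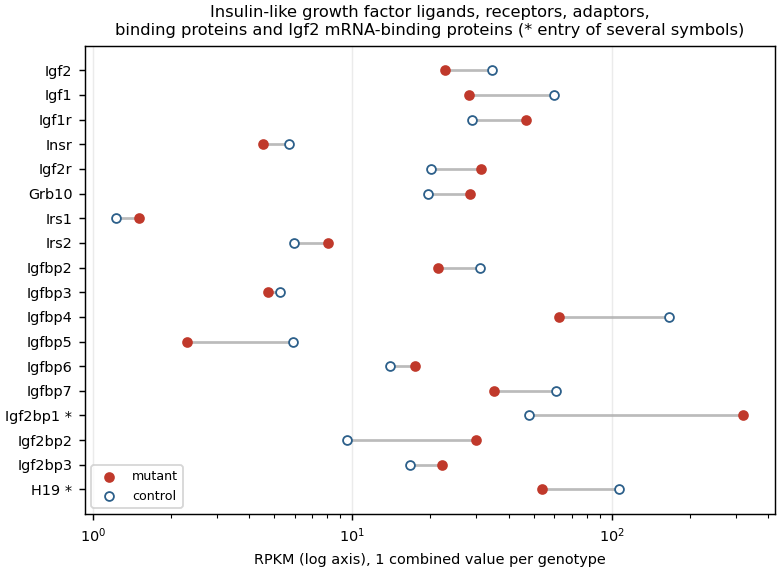
RPKM on a log axis of IGF ligands, receptors, adaptors, binding proteins, Igf2 mRNA-binding proteins and H19, with filled points for mutant and open points for control. Asterisks mark entries of several symbols. Igf2bp1 shows the widest gap, at 321 RPKM in the mutant and 47.8 RPKM in the control, while Igf2, Igf1 and H19 sit lower in the mutant.

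The Dlk1-Dio3 cluster on chromosome 12 split within its maternal RNAs. Rian, a noncoding RNA that hosts C/D box small nucleolar RNAs, was at 116 RPKM in the mutant and 194 RPKM in the control, 1.67-fold lower (interval 1.65 to 1.69). Meg3 was at 15.5 RPKM in the mutant and 11.8 RPKM in the control and Mirg, which hosts a run of miRNAs, at 5.81 RPKM in the mutant and 4.80 RPKM in the control, above 0 as deposited and below it, at -0.09 and -0.18, after rescaling to the germ cell markers. All these entries pool several symbols. Dlk1, a Notch-like ligand of preadipocytes and fetal Leydig cells expressed from the paternal copy, was at 23.9 RPKM in the mutant and 31.6 RPKM in the control. The deiodinase gene Dio3, which inactivates thyroid hormone, stayed under the minimum at 0.452 RPKM in the mutant and 0.407 RPKM in the control. With the trend of transcript length and GC content removed, Rian was past 2-fold at -1.09. Leydig cell marker sums, at 237 RPKM in the mutant and 741 RPKM in the control, were lower in the same direction as Dlk1, and their part in it was not tested.

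**Figure D3:**
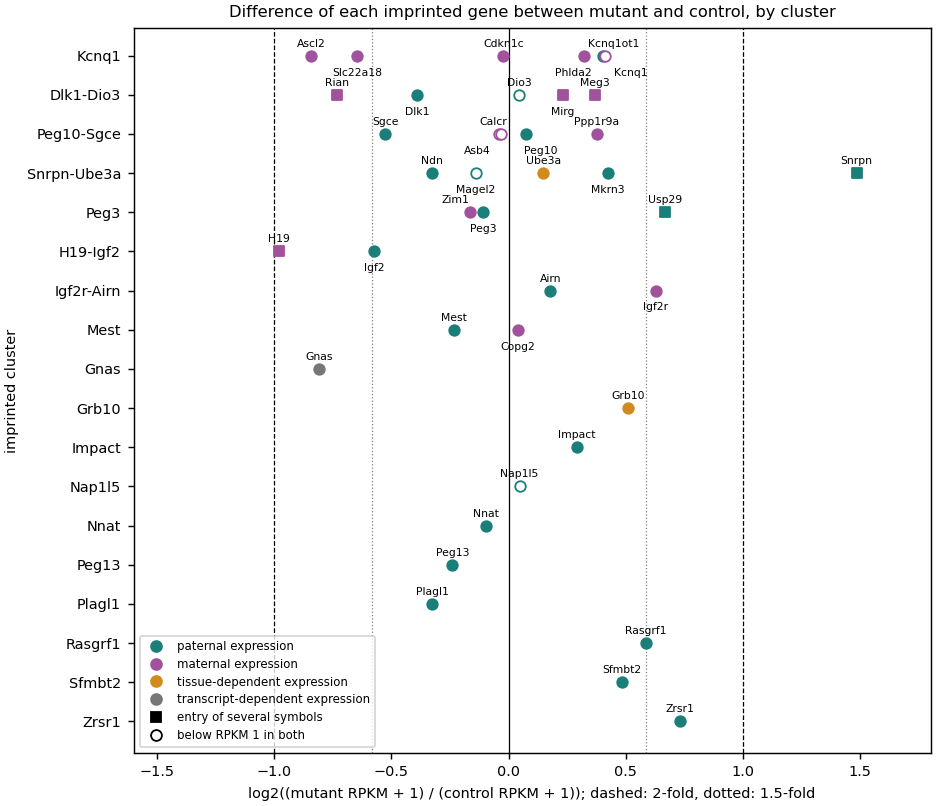
Difference of each imprinted gene on the log2(RPKM + 1) scale, mutant over control, by imprinted cluster or locus and coloured by parental expression. Squares mark entries of several symbols, open circles genes under an RPKM of 1 in both genotypes, and dashed and dotted lines 2-fold and 1.5-fold. Snrpn is the 1 member beyond 2-fold and H19 lies just short of it, as deposited. Of the 8 clusters with at least 2 members in the comparison, all but H19-Igf2 and Igf2r-Airn have members on both sides of 0. Rescaling to the germ cell markers turned 8 members from above to below 0.

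In the Kcnq1 cluster, the second one on distal chromosome 7, values were low apart from Cdkn1c. Cdkn1c, which encodes the cell cycle inhibitor p57, was at 10.4 RPKM in the mutant and 10.55 RPKM in the control, a log2 difference of -0.02. It was -0.46 after rescaling to the germ cell markers, 0.03 under quantile normalization and 0.22 once the length and GC trend was taken out. Ascl2, a transcription factor gene of trophoblast and intestinal stem cells, was at 1.59 RPKM in the mutant and 3.64 RPKM in the control, 2.29-fold lower in the mutant (interval 1.86 to 2.86). Its log2 difference of -0.84 stays short of the 2-fold rule because of the added RPKM of 1. Slc22a18, a transporter gene, was at 0.472 RPKM in the mutant and 1.31 RPKM in the control and Phlda2, which limits placental growth, at 1.67 RPKM in the mutant and 1.13 RPKM in the control. Slc22a18 met the minimum in the control alone, so that it had to be lower in the mutant. The potassium channel gene Kcnq1 was at 0.758 RPKM in the mutant and 0.322 RPKM in the control, under the minimum. Kcnq1ot1, the long antisense RNA that silences the cluster on the paternal copy in somatic tissue, was at 2.69 RPKM in the mutant and 1.79 RPKM in the control.

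Gnas, which encodes the stimulatory G protein alpha subunit together with alternative imprinted transcripts, was at 125 RPKM in the mutant and 219.9 RPKM in the control, 1.76-fold lower (interval 1.73 to 1.79). Its entry sums transcripts of maternal, paternal and biparental origin, which cannot be separated here. Among the genes of the Peg3 cluster, Usp29, a ubiquitin protease gene in an entry shared with Gm27675, was at 3.002 RPKM in the mutant and 1.52 RPKM in the control, 1.98-fold higher. Peg3, the zinc finger gene transcribed from the opposite strand of the same start region, was at 14.5 RPKM in the mutant and 15.8 RPKM in the control, so that its level was 4.85 times that of Usp29 in the mutant and 10.4 times in the control. Zim1, a neighbouring zinc finger gene of maternal expression, was at 1.95 RPKM in the mutant and 2.31 RPKM in the control. In the Peg10-Sgce cluster, Peg10, a gene derived from a retrotransposon, was at 7.78 RPKM in the mutant and 7.34 RPKM in the control and the sarcoglycan gene Sgce at 4.70 RPKM in the mutant and 7.203 RPKM in the control. Ppp1r9a, which encodes the actin-binding protein neurabin, was at 25.7 RPKM in the mutant and 19.6 RPKM in the control. Asb4 stood at 0.367 RPKM in the mutant and 0.408 RPKM in the control and the calcitonin receptor gene Calcr at 0.0193 RPKM in the mutant and 0.0434 RPKM in the control, both under the minimum.

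The remaining loci hold 1 or 2 members each. Zrsr1, a splicing factor gene that arose by retrotransposition into an intron of Commd1, was at 10.1 RPKM in the mutant and 5.70 RPKM in the control, 1.77-fold higher (interval 1.66 to 1.89). Its host stood at 105 RPKM in the mutant and 126 RPKM in the control in an entry of several symbols, and the value of Zrsr1 is uncertain because the X-linked gene Zrsr2 is similar in sequence. Sfmbt2, a Polycomb-group gene, was at 29.3 RPKM in the mutant and 20.7 RPKM in the control, and Impact, a regulator of the translational stress response, at 12.0 RPKM in the mutant and 9.65 RPKM in the control. Rasgrf1, a Ras exchange factor gene whose control region is methylated in the male germ line, was at 1.33 RPKM in the mutant and 0.556 RPKM in the control. It met the minimum in the mutant alone, so that it had to be higher there, and its log2 difference of 0.58 lay at the edge of the 1.5-fold rule. Mest, a gene of the hydrolase fold family, was at 36.6 RPKM in the mutant and 43.2 RPKM in the control, and its neighbour Copg2, a coatomer subunit gene, at 50.2 RPKM in the mutant and 48.8 RPKM in the control. Plagl1, the zinc finger factor gene also known as Zac1, was at 11.7 RPKM in the mutant and 14.9 RPKM in the control. Nnat, which encodes neuronatin, was at 9.02 RPKM in the mutant and 9.72 RPKM in the control, a log2 difference of -0.10 that turned to 0.14 without the length and GC trend. The noncoding RNA Peg13 was at 1.86 RPKM in the mutant and 2.38 RPKM in the control, and Nap1l5, a nucleosome assembly protein gene, at 0.717 RPKM in the mutant and 0.663 RPKM in the control, under the minimum. The hosts or overlapping partners of these genes lay within 1.5-fold as deposited, with Herc3 (of Nap1l5) at 24.4 RPKM in the mutant and 17.0 RPKM in the control, Blcap (of Nnat) at 20.8 RPKM in the mutant and 19.4 RPKM in the control, and Trappc9 (of Peg13) at 8.34 RPKM in the mutant and 9.86 RPKM in the control.

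Another 37 imprinted genes were listed beside the members, of which 34 were found and 24 met the minimum. The median of these 24 was -0.24, with 7 above 0 and 17 below. None was 2-fold higher and 2 were 2-fold lower, beside 4.38% and 4.33% of all entries. The lower ones were Gatm, an enzyme gene of creatine synthesis, at 36.2 RPKM in the mutant and 84.4 RPKM in the control, and Pon3, a paraoxonase gene, at 8.44 RPKM in the mutant and 21.1 RPKM in the control. The most abundant by mean were the Commd1 entry, Nap1l4 at 92.5 RPKM in the mutant and 86.7 RPKM in the control, and Cd81, a tetraspanin gene, at 60.1 RPKM in the mutant and 107 RPKM in the control. After rescaling to the germ cell markers 0 were 2-fold higher and 6 lower, with a median of -0.65. Of all entries 2.78% were then 2-fold higher and 13.7% lower. Dcn, which this list shares with the fibroblast markers, was at 24.9 RPKM in the mutant and 39.0 RPKM in the control.

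Factors that set and keep imprints were listed together with the demethylation genes Tet1, Tet2, Tet3 and Tdg, and all were present in both genotypes. All 26 listed reached an RPKM of 1 in at least 1 genotype. Their median was 0.13, or -0.35 after rescaling to the germ cell markers. By the 2-fold rule 1 was higher and 0 were lower, beside 4.38% and 4.33% of all entries. The higher one was Dnmt3l, the cofactor of new DNA methylation in prospermatogonia, at 4.19 RPKM in the mutant and 0.738 RPKM in the control, 5.68-fold higher (interval 4.35 to 7.43) and still past 2-fold, at 1.20, after the rescaling. Dnmt3l met the minimum in the mutant alone, so that it had to be higher there. The new methyltransferase genes Dnmt3a, at 51.6 RPKM in the mutant and 40.01 RPKM in the control, and Dnmt3b, at 18.02 RPKM in the mutant and 14.7 RPKM in the control, were above 0 as deposited and below it after the rescaling. Dppa3, which protects methylation after fertilisation, lay just short of the 2-fold rule at 3.50 RPKM in the mutant and 1.30 RPKM in the control. By the mean of both genotypes the most abundant factors were Trim28, a corepressor recruited to imprinted regions, at 347 RPKM in the mutant and 314 RPKM in the control, the chromatin remodeller Hells at 219 RPKM in the mutant and 204 RPKM in the control, and the histone methyltransferase gene Ehmt2 at 127 RPKM in the mutant and 97.2 RPKM in the control, all of which turned below 0 after the rescaling. By the 1.5-fold rule 4 factors were higher and 1 lower as deposited, beside 12.6% and 13.7% of all entries. With Dnmt3l and Dppa3, the higher ones were Arid4b and Smchd1. Arid4b was at 39.2 RPKM in the mutant and 20.7 RPKM in the control. Smchd1 was at 92.0 RPKM in the mutant and 60.6 RPKM in the control. After the rescaling they were at 0.41 and 0.11. The lower one was Uhrf1, which brings the maintenance methyltransferase to replicated DNA. It was at 77.1 RPKM in the mutant and 118 RPKM in the control, a log2 difference of -0.61 that was -1.10 after the rescaling. Dnmt1, that methyltransferase, was at 78.8 RPKM in the mutant and 99.2 RPKM in the control. Zfp57, whose protein protects imprints in the early embryo, was at 4.20 RPKM in the mutant and 4.27 RPKM in the control.

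**Figure D4:**
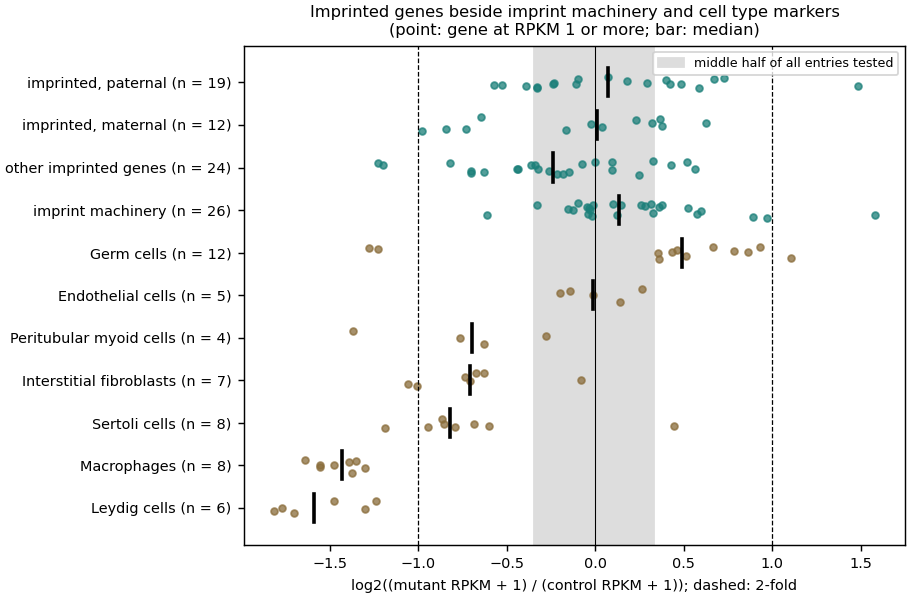
Difference of each gene on the log2(RPKM + 1) scale, mutant over control, for paternally and maternally expressed members, other imprinted genes, imprint factors and markers of 7 cell types, with a point per gene at RPKM 1 or more and a bar at the median. The grey band runs from the lower to the upper quartile of all entries tested. Medians of the members, 0.07 and 0.01, lie inside the band, as does that of the imprint factors, while those of the Leydig and macrophage markers lie at -1.59 and -1.43.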

How the data were processed

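RNA of THY1+ spermatogonia was sequenced in 4 libraries made by Illumina protocols. TopHat2 2.0.11 and GRCm38 come from the submitters' processing notes. Which program counted the reads, on which annotation, and how the authors combined the libraries are points on which the sources used here are silent. The table holds RPKM as deposited, with 1 column per genotype that names both libraries, per the file headers. The members and lists were chosen with earlier results of these data known, and the IGF list and the 1.5-fold rule after the members' values were seen.

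The difference was log2((mutant RPKM + 1) / (control RPKM + 1)) over entries that reached an RPKM of 1 in at least 1 genotype. The plan named limma for a table with a value per library, which these combined columns do not allow. Of 17278 entries, 774 pooled several symbols and were kept, since 6 members lie in such entries. All listed members are named, and of the other imprinted genes and imprint factors those past 2-fold and the 3 most abundant, with a few added after their values were seen. Depth came from 3358 genes with 1 transcript of at least 1000 nt in GENCODE M21: 95.3% of 900 low mutant values and 90.5% of 884 low control values lay within 0.1 of a whole read. Read numbers behind the ratio intervals used the longest GENCODE transcript, are approximate, and assume independent reads. Coordinates are printed counting from 1. The steps were run in Python 3.11.15 with pandas 2.3.3 and scipy 1.17.1, and the call rule was tested on simulated data.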

Additional observations from a re-analysis of the deposited data

How the results depend on the processing

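No paired analysis was possible because each genotype has 1 combined column, and for the same reason no library could be left out. Under 8 other settings the counts and medians moved as follows. With a pseudocount of 0.1 (an RPKM added before the log), 2 members were 2-fold higher (Snrpn and Rasgrf1) and 2 lower (Slc22a18 and Ascl2), where 8.48% and 6.7% of all entries were. The directions of Rasgrf1 and Slc22a18 were fixed by the minimum, which each met in 1 genotype alone. With an RPKM of 5 required, the paternal median was -0.11, the maternal median 0.14, 3 members were 1.5-fold lower, and 1 cluster lay wholly on 1 side of 0. After rescaling to the germ cell markers, 0 members were 2-fold higher and 5 lower (H19, Igf2, Rian, Ascl2 and Gnas), where 2.78% and 13.7% of all entries were. By the 1.5-fold rule 1 was higher and 11 lower, where 4.65% and 37.3% of all entries were. The medians were -0.44 for the members, -0.44 for the paternal and -0.45 for the maternal ones, and 4 clusters lay on 1 side of 0. The median of all entries was -0.44 as well. With the length and GC trend removed, 1 member (Rian) was 2-fold lower and the maternal median was 0.11. With pooled entries left out, as first planned, 0 members were 2-fold higher, 2 were 1.5-fold higher and 3 lower, and the paternal median was -0.10, because Snrpn, Usp29, H19 and Rian lie in such entries. The shares of all entries were not taken for the RPKM of 5, the trend removed or the pooled entries left out. Member counts under these settings are thus descriptions only. A pseudocount of 0.5, no minimum, and quantile normalization moved none of these counts by more than 1.5 times. The sign of single members changed for 8 of 33 genes after the rescaling, 3 of 34 with the trend removed and 1 of 34 with quantile normalization. The intervals cover counting error alone. Depth limits Calcr most, with about 4 reads in the mutant and 9 in the control. Among members that met the minimum, the ratio intervals of Phlda2 (0.928 to 2.30), Airn, Nnat, Cdkn1c and Copg2 include 1. Those of Nap1l5, Dio3, Asb4 and Calcr, all under the minimum, include it too.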

Other observations

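Small RNA entries of the Dlk1-Dio3 cluster were mostly empty. Of 52 entries there that list a miRNA, 47 were at 0 in both genotypes and 4 met the minimum of 1 RPKM, among them the Meg3 and Mirg entries. The others were Mir329, at 151 RPKM in the mutant and 299.9 RPKM in the control, and Mir433, at 29.2 RPKM in the mutant and listed at 0 in the control. Mir433 met the minimum in the mutant alone, so that it had to be higher there. RPKM divides by length, so in very short genes a few reads give a high value. These levels are thus not comparable with those of long genes. The entries of single miRNA genes say nothing of mature miRNA levels.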
